A study of Caenorhabditis elegans with 4 samples.

Results

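The X chromosome of Caenorhabditis elegans carried 388 of the SDC-1 binding peaks that the authors listed for the whole series, and the autosomes carried the other 964. The X peaks are described here by their strength, width, spacing, position and recurrence in each ChIP sample. They were chosen by chromosome alone, as every X row of the whole-series list. The assay was ChIP-seq (chromatin immunoprecipitation followed by sequencing), in which an antibody recovers the DNA that a protein is bound to. The material was wild-type N2 embryos of mixed stage, from a population of males and hermaphrodites. An affinity-purified rabbit polyclonal antibody against SDC-1 (SDQ3856) was used. The labels list 2 ChIP replicates and 2 inputs, all of the same strain and stage, and only peak lists from the ChIP replicates were used. Whole embryos were used, so the cell types, stages and sexes that gave the signal cannot be told apart.

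SDC-1 is a zinc-finger protein of the dosage compensation complex. This complex binds the X chromosomes of hermaphrodites, which have a pair of them, and lowers their transcription towards the level of the single X of males. The SDC proteins help to bring a condensin complex, whose SMC subunits are DPY-27 and MIX-1, to recruitment elements on X known as rex sites. From there the complex reaches further sites along the chromosome, many of them at promoters. The positions of named rex sites were not used here, and no genome of the build of the files (WormBase WS220) was used, so peaks are given by WS220 coordinates without gene names or sequences.

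Each peak has a start, an end and a score from the authors' peak caller, and the score has no stated definition. The caller is named as MACS for the replicate lists and MACS v2 for the whole-series list. In contrasts between the whole-series list and a replicate list, an effect of the caller therefore cannot be told apart from other differences. Whole-series scores on X ran from 1.37 to 170.28, and the replicate lists use another scale, from 50.3 to 3119.7 in replicate 1 and from 50.24 to 3100 in replicate 2. Scores are therefore compared in level only within a list. Replicate 1 had 169 peaks on X and replicate 2 had 306. The step that combined the replicates is not stated in the labels or file headers. Overlap between that list and a replicate list is thus not independent support, because the lists may rest on the same reads. The read depth is unknown. Nothing in the labels says that the replicates were separate embryo collections, so their likeness may be technical. All comparisons below are descriptions without a test, since the study has 1 ChIP group of 2 samples and peaks are not replicates.

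The X peaks covered a wide range of strength. The median score was 10.2, the lowest 25% of peaks lay below 5.11 and the highest 25% (97 peaks) lay at or above 37.71. Just inside this top 25% lay a peak scoring 37.71 (6292104 to 6292480) and a pair tied at 38.35 (4788945 to 4789328 and 16602355 to 16602676). The 2 just outside, at 9078126 to 9078443 and 15297217 to 15297706, both scored 37.07. These peaks at the border were 318 to 490 bp wide and were all found in both replicate lists.

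Stronger peaks were wider. The median width was 525 bp in the top 25%, 310 bp in the next 25%, 213 bp in the step after that and 197 bp in the lowest, a ratio of 2.66 between top and lowest. Across the 388 peaks, Spearman's rho of score and width was 0.70, and within the top 25% it was 0.85 (97 peaks). In the replicate lists it was 0.76 (169 peaks) and 0.78 (306 peaks). Score and width come from the same caller and the same reads. The 97 strongest peaks took 42.8% of all bases covered by X peaks (73074 of 170901 bp). None of the 94 peaks under 200 bp wide was in the top 25%.

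The widest peaks fell into separate ranges of score. Of 36 peaks of at least 1000 bp, 25 were in the top 25% and scored at least 105.49. The other 11 scored between 3.07 and 25.12, and no peak of this width scored in between. The limit of 1000 bp was not planned, and the split depends on it. Somewhat narrower peaks did score in between, such as those at 1386669 (852 bp, 60.85) and 10667403 (792 bp, 101.5). The widest X peak of all, 10364348 to 10369107, was 4760 bp wide and scored only 25.12, with 258.81 in replicate 1 and 817.86 in replicate 2. The next, 1752377 to 1755089, was 2713 bp wide and scored 14.47, with 554.16 and 3100. The one after, 17543749 to 17546357, was 2609 bp wide and scored 166.1, with 3100 in both replicates. Great width thus occurred with the highest whole-series scores and with modest ones.

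**Figure D1:**
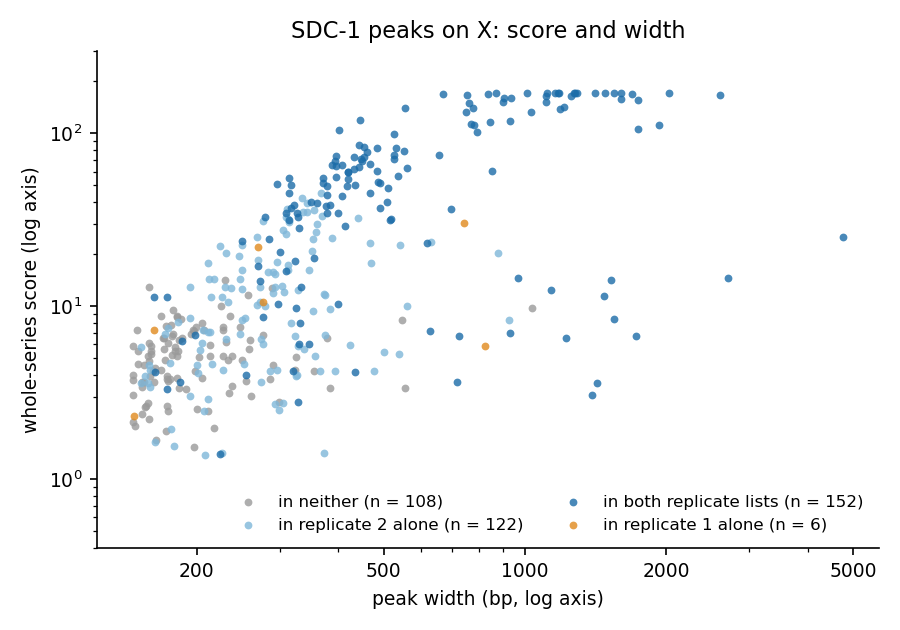
Whole-series score against peak width for the 388 X peaks, both on log axes, coloured by the replicate lists in which each peak was found. Score rises with width up to 170.28, while a scatter of peaks over 1000 bp lies apart at scores of 25.12 and below.

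The largest score, 170.28, was shared by 14 X peaks, which is a tie at the upper limit of the list. Their widths ran from 868 to 2029 bp with a median of 1274.5 bp. All 14 were found in both replicate lists, at 3100 in replicate 2 and at 2303.64 to 3119.7 in replicate 1. In replicate 1 the lowest of them was the peak at 784894 to 786077, and the peak at 17180853 to 17182026 followed with 2659.87. Replicate 1 peaks over these sites were narrower (713 to 1289 bp, median 851) than replicate 2 peaks (1006 to 2231 bp, median 1462.5). Their midpoints lay close to those of the whole-series peaks, at a median of 40.5 bp and at most 129.5 bp away in replicate 1, and 46.5 and at most 293.5 bp in replicate 2. Over all matched X peaks the median was 42 bp in replicate 1 (158 peaks) and 42 bp in replicate 2 (274 peaks). The 14 sites were therefore placed about as closely as matched X peaks in general.

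Of the 14 strongest sites, 4 lay in the right part of X, at 14525283 to 14526562, 16055908 to 16057068, 16205432 to 16206723 and 17180853 to 17182026. The first of these was 1280 bp wide, with a narrower peak over it in replicate 1 (942 bp) and a wider one in replicate 2 (2135 bp). For the one at 16205432 the widths were 1292, 850 and 1248 bp in that order. The other 10 lay further left. Those at 784894, 805907, 1344106, 1626598 and 1888230 were 1184, 1480, 2029, 1113 and 868 bp wide. Those at 2996114, 8035810, 9465268, 11936649 and 13700048 were 1603, 1407, 1010, 1269 and 1545 bp wide. None of the 14 lay between 3 and 8 Mb. Of the 14, 10 had another X peak less than 5000 bp away, against 186 of all 388 X peaks (47.9%), a difference that was not tested. Such neighbours were weaker by construction, since the 14 hold the largest score and none lay this near another. The median distance from these sites to the nearest peak was 1806 bp (47 to 16543 bp). The 14 sites themselves were far apart, from 19829 to 5038093 bp, with a median gap of 974129 bp.

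The next question was which X peaks were found in each ChIP sample, counting an overlap of at least 1 bp. Of the 388 X peaks, 152 (39.2%, exact 95% Clopper-Pearson interval 34.3 to 44.2%) were found in both replicate lists. Another 122 (31.4%) were found in replicate 2 alone, 6 (1.55%) in replicate 1 alone and 108 (27.8%) in neither. Such intervals hold only counting error and take each peak as an independent draw. Over all chromosomes, 36.9% of peaks were found in both lists and 29.1% in neither, so the X shares lay near those of the whole list. By sample, 40.7% of X peaks were found in replicate 1 and 70.6% in replicate 2, against 38.7% and 69.1% over all chromosomes. Replicate 2, with its longer list, thus held most X peaks that replicate 1 lacked.

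Recurrence fell steeply with score. In the top 25% of X peaks, 94 of 97 (96.9%, interval 91.2 to 99.4%) were in both replicate lists and all 97 were in replicate 2. Of all peaks of any chromosome at or above the same score, X included, 97.8% were in both. Of the autosomal peaks alone, 81 of 82 (98.8%) were, so strong X peaks recurred about as often as strong autosomal peaks. In the next 25%, 34 of 97 were in both lists and 56 in replicate 2 alone. In the step after that the counts were 13 and 31, and in the lowest 25% they were 11 and 32. Among the 194 X peaks below the median score, 104 (53.6%) were in neither replicate list, against 43.8% of all peaks below that score. This difference was not tested.

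**Figure D2:**
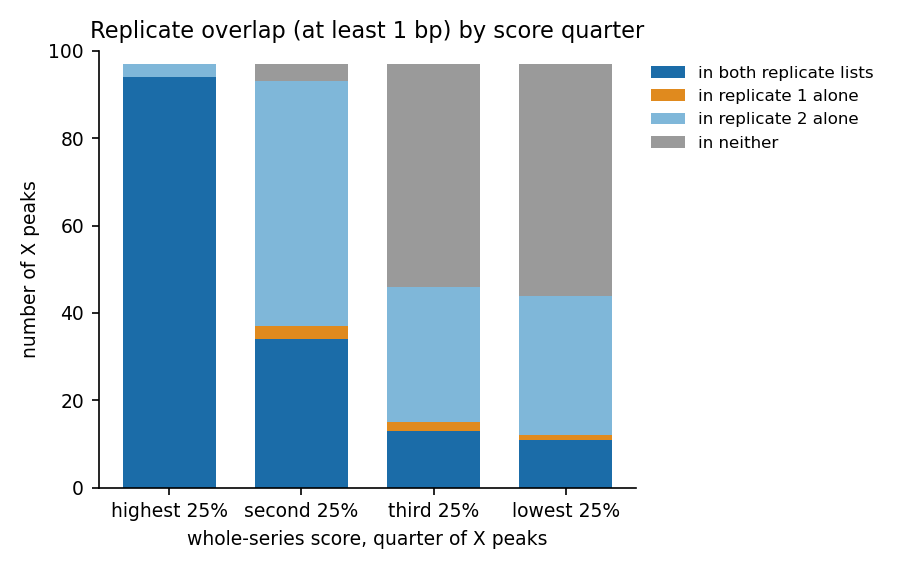
Number of X peaks in each 25% step of whole-series score, divided by the replicate lists in which they were found. Nearly the whole of the highest step (94 of 97) was in both lists, while 51 and 53 of 97 in the lower steps were in neither.

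The exceptions at each end can be named. The 3 strongest X peaks missing from a replicate were all absent from replicate 1: 1961338 to 1961705 with a whole-series score of 44.91, 4444061 to 4444395 with 42.1 and 11252342 to 11252684 with 39.63. Replicate 2 gave them 467.11, 336.82 and 328.23. They were 335 to 368 bp wide, and the nearest replicate 1 peaks lay 4730, 48125 and 108316 bp away. The strongest of the 6 peaks found in replicate 1 alone was 1643878 to 1644618, which scored 30.28, against 203.57 on the scale of replicate 1. The strongest X peaks found in neither list scored far lower, with 14.13 at 13038788 to 13039017, 12.97 at 13697551 to 13697708 and 12.71 at 8944101 to 8944389. Every X peak above 14.13 therefore overlapped a peak of at least 1 replicate.

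At the other end, the weakest X peak found in both replicate lists, 109852 to 110075, scored 1.4, which ranked it 387 of 388. It lay in a replicate 1 region of 5137 bp with a score of 725.98 and a replicate 2 region of 5240 bp with the tied top score of 3100. The same pair of regions held 4 whole-series peaks, which scored 1.4, 3.07, 6.74 and 6.74 and together covered 4065 bp. Here a broad region was strong in each replicate and weak in the whole-series list.

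Several such regions lay on X. Their share over all chromosomes was not counted, so they are not presented as particular to X. Replicate 2 had 37 X regions at its tied score of 3100, and in 34 the best whole-series peak was in the top 25%. The other 3 were 109125 to 114364, 1752173 to 1755157 and 9184874 to 9188765, whose best whole-series scores were 6.74, 14.47 and 12.33. They were 5240, 2985 and 3892 bp wide. Of the 77 replicate 2 regions in that list's own top 25%, 10 had no whole-series peak in the top 25%, and they were 1226 to 8277 bp wide. In replicate 1 this held for 2 of 43, of 5137 and 3791 bp. Of the 8 X regions over 2000 bp in replicate 1, none had a whole-series peak in the top 25%, while 5 of the 15 in replicate 2 did.

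Many weak peaks that recurred lay in such regions. Of the 24 X peaks below the median score that were found in both replicate lists, 15 (62.5%) lay in a replicate region over 2000 bp. This limit was chosen with the values in view. The 15 are not independent, since peaks inside 1 wide region recur together. The replicate 2 regions 109125 to 114364, 1636056 to 1638675 and 4025963 to 4029275 held 4, 3 and 3 of them. Among the 94 recurrent peaks of the top 25%, 5 did. The median replicate 1 score of matched X peaks was 421.54 in the top 25% by whole-series score, 102.03 in the next, 251.41 in the step after that (15 peaks) and 292.55 in the lowest (12 peaks). The median replicate 2 score fell over the same steps, from 1211.74 (97 peaks) to 219.1 (90), 125.31 (44) and 115.14 (43). The lower steps were thus ordered differently in the 2 replicates. Weak peaks also flanked strong ones. Of 25 X peaks below the median score that lay in a top 25% region of replicate 2, 9 shared that region with a whole-series peak of the top 25% and 13 others lay in a replicate region over 2000 bp without one.

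Between the replicate lists, 155 of 169 X peaks of replicate 1 (91.7%) overlapped a replicate 2 peak. The other way, 145 of 306 X peaks of replicate 2 (47.4%) overlapped a replicate 1 peak. Both shares were counted on X only, so they are not presented as particular to X. For X peaks found in both lists, the scores of the 2 ChIP samples ranked alike. Over the 152 X peaks found in both, Spearman's rho was 0.91, and without peaks at the tied top scores it was 0.79 (109 peaks). Whole-series scores followed replicate scores less closely, with rho of 0.65 for replicate 1 (158 peaks) and 0.57 for replicate 2 (274 peaks). Within the top 25% these values were 0.92 (94 peaks) and 0.94 (97 peaks). Without peaks in replicate regions over 2000 bp, a choice made with the values in view, they were 0.83 (131 peaks) and 0.74 (241 peaks). Neighbouring peaks that share a replicate region also share its score, so the points are not independent.

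**Figure D3:**
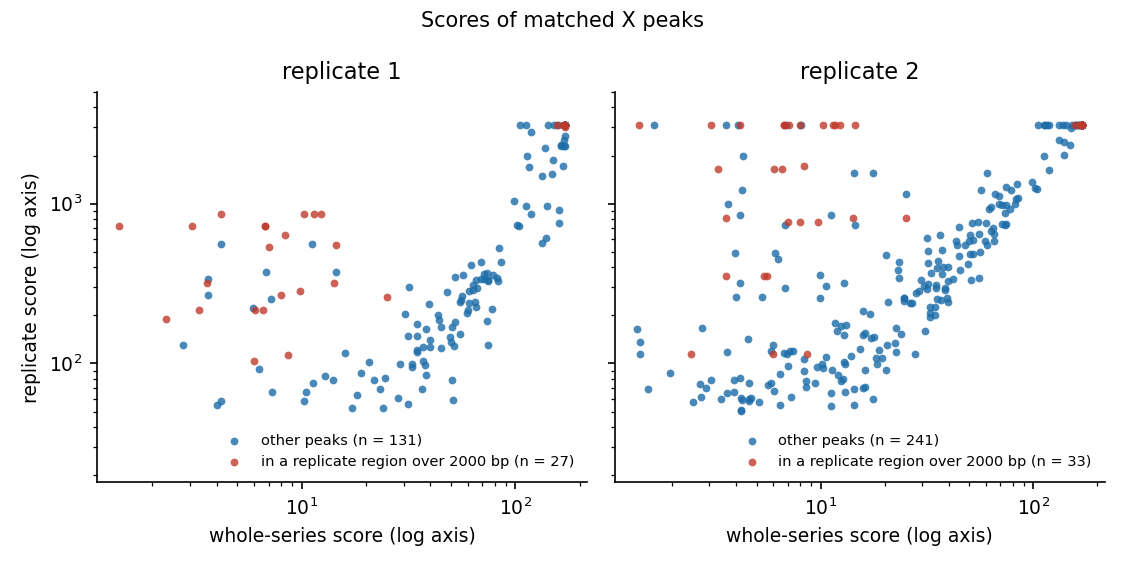
Replicate score against whole-series score for X peaks found in replicate 1 (158) and replicate 2 (274), on log axes, with peaks in replicate regions over 2000 bp in red. Most points rise together towards 170.28, and a separate band of weak whole-series peaks, many of them red, sits at replicate scores of up to 3100.

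Read from the replicate lists, 151 of 169 X peaks of replicate 1 (89.3%) and 240 of 306 of replicate 2 (78.4%) overlapped a whole-series peak. The 18 and 66 without one were weaker, with median scores of 92.23 against 281.65 in replicate 1 and 80.1 against 330.49 in replicate 2. Shares in this direction were not counted over all chromosomes, so they are not presented as particular to X. Replicate 1 had 7 X regions with 2 or more whole-series peaks and replicate 2 had 25, holding 60 whole-series peaks. The latter regions had a median width of 1617 bp, against 560 bp for regions with 1 peak. Wide replicate regions were thus often divided in the whole-series list. A wider region also has more room to overlap several peaks. The replicate lists name MACS without a version and the whole-series list names MACS v2, and a role of the caller was not tested.

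There were 10 X regions of replicate 1 that overlapped a replicate 2 peak and no whole-series peak. Over those at 4029850 to 4030465, 12277225 to 12278272 and 14386540 to 14387173, the replicate 2 peak was wider and reached at least 1 whole-series peak. The strongest of the 10 by replicate 1 score ran from 15807006 to 15811267 and was 4262 bp wide. It scored 446.06 in replicate 1 and 282.37 in replicate 2, with the nearest whole-series peak 14881 bp from the replicate 2 region. Another lay at the very start of X, from 1 to 316 in replicate 1 and from 1 to 371 in replicate 2, with scores of 93.84 and 74.23. The region from 2056968 to 2057321 scored 61.26 in replicate 1 and 325.5 in replicate 2, the highest score of any replicate 2 X peak without a whole-series peak.

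Spacing along X was uneven. The median gap between neighbouring X peaks was 19368 bp, and gaps ran from 43 to 382571 bp. Of the 387 gaps, 79 were under 1000 bp, 120 were under 5000 bp and 56 were over 100000 bp. The replicate lists had longer median gaps, 60262 bp for replicate 1 and 29965 bp for replicate 2, and held fewer peaks. The 97 strongest peaks had a median gap of 108781.5 bp, from 597 to 922128 bp. This value depended on the list, and fewer peaks give longer gaps by construction. The top 25% of replicate 1 (43 peaks) had a median gap of 307292.5 bp and that of replicate 2 (77 peaks) had 130613 bp. The top 25% of peaks found in both lists had 318827 bp. For the top 10% of X peaks the median gap was 336139.5 bp, and for the top 50% it was 49048 bp. Strong sites thus lay anywhere from neighbours within 1 kb to stretches near 1 Mb apart.

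**Figure D4:**
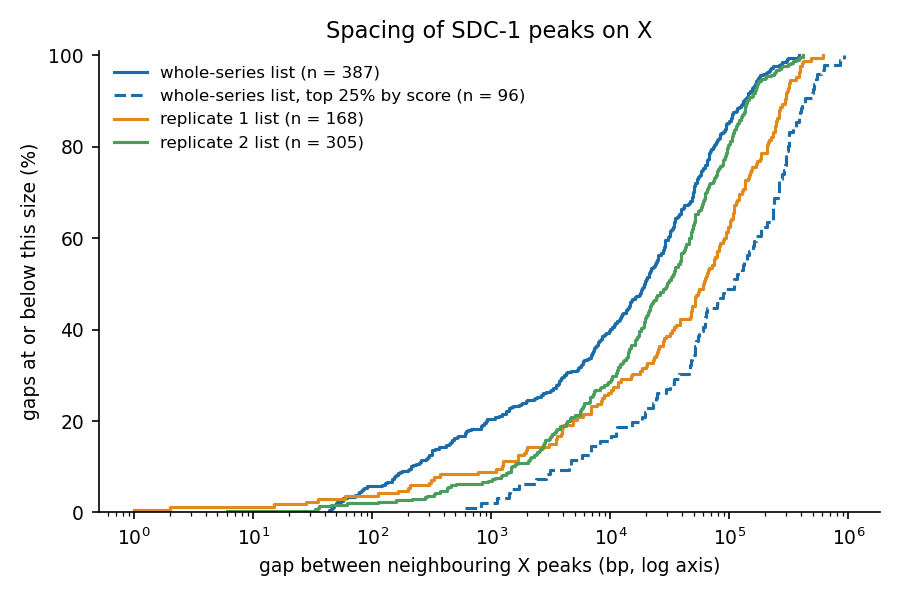
Cumulative share of gaps between neighbouring X peaks by gap size (bp, log axis) for the whole-series list, its top 25% by score and each replicate list. The whole-series curve starts at 43 bp and reaches its middle at 19368 bp, and the top 25% curve reaches it at 108781.5 bp.

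Peaks less than 5000 bp apart were chained into clusters. By this rule 186 X peaks (47.9%) lay in 66 clusters and 202 stood alone, and over all chromosomes 47.2% of peaks had a neighbour this near, so clustering on X was near that of the whole list. Of the clusters, 43 were pairs and 23 held 3 or more peaks. A peak of the top 25% was present in 30 of the 66 clusters and in 12 of the 23 larger ones. The share of clustered peaks was 42.3% in the top 25% by score, 46.4% and 49.5% in the next steps and 53.6% in the lowest. The largest cluster, of 16 weak peaks, weighed on these shares. Without it, a choice made with the values in view, 45 of 94 peaks in the step next to the lowest (47.9%) and 39 of 84 in the lowest (46.4%) had such a neighbour. With peaks chained at 1000 bp, 31.7% of all X peaks were clustered. The peaks below the top 25% had a median distance of 64580 bp to the nearest peak of the top 25%. In place of the whole-series list, replicate 1 gave 132710 bp and peaks found in both lists gave 211068.5 bp. With the top 10% or the top 50% of X peaks as the strong ones, the distance was 133693 or 31421.5 bp. Within 5000 bp of another top 25% peak lay 21 of the 97 strongest peaks, and 14, 12 and 13 of 97 in the lower steps.

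The 3 largest clusters differed in kind. The largest ran from 7351453 to 7360628 and packed 16 peaks into 9176 bp, with gaps of 57 to 928 bp. All were weak, with scores of 2.13 to 8.34 and a median of 4.22. None was in replicate 1, whose nearest peak lay 169326 bp away, and 5 overlapped replicate 2 peaks, which scored 51.33 to 106.07. This dense patch was therefore seen in the whole-series list and, in part, in replicate 2. The second largest, from 16202110 to 16217990, held 9 peaks, 3 of them in the top 25%. Its strongest was the tied peak at 16205432, and the next, 16209079 to 16210266, scored 137.92, with 2241.57 in replicate 1 and 3100 in replicate 2. All 9 were found in replicate 2 and 5 in both lists. The third, from 14384863 to 14389580, held 6 weak peaks scoring 2.39 to 8.63, of which 2 were in both lists and 3 in neither.

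For the longest stretches of X without a whole-series peak, replicate peaks were counted where at least 1 bp lay in the stretch. Replicate peaks over the flanking whole-series peaks were thus counted where they reached past the edge. This was so for every replicate 2 peak counted, and replicate 1 peaks were not separated in this way. The longest, 382571 bp, ran from 2613543 to 2996113 and lay between a peak scoring 44.97 and a tied strongest peak. It was touched by 1 replicate 1 peak and by the 2 replicate 2 peaks over its flanks (636 and 1666 bp wide). The next, 380474 bp, ran from 9743869 to 10124342 between peaks scoring 47.98 and 9.56. No replicate 1 peak reached into it, and the only replicate 2 peak was that over its left flank (763 bp wide). It thus held no separate peak of either replicate. The third, 311583 bp, ran from 3036313 to 3347895. It was touched by 2 replicate 1 peaks and by the 2 replicate 2 peaks over its flanks (709 and 634 bp wide). Its flanking peaks were both in the top 25%, with scores of 74.8 and 65.25.

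Position along X was read in 18 windows of 1 Mb, counted from position 1, the last of them only partly covered. Every window held whole-series peaks, from 9 to 49 with a median of 20, and each held at least 1 peak of the top 25%. The second window (1 to 2 Mb) was the fullest in each list, with 49 whole-series peaks, 24 in replicate 1 and 34 in replicate 2. It was also the fullest for peaks found in both lists (21), and it held 15 of the 97 strongest peaks and 3 of the 14 tied ones. The next fullest in the whole-series list, window 17 (16 to 17 Mb), held 36, 13 and 32 peaks in the same order and 9 of the strongest. Across the windows, Spearman's rho of counts was 0.53 between the replicates (18 windows). The crowded part near the left end was thus rich in strong, recurrent and weak peaks alike.

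Window 8 (7 to 8 Mb) was unlike its neighbours. It held 27 whole-series peaks, yet 3 in replicate 1 and 11 in replicate 2, and only 1 of the 97 strongest. Of its peaks, 25 scored below the median of X and 17 were in neither replicate list, the most of any window on both counts. The 16-peak cluster lay here. Without it 11 whole-series peaks were left, 9 of them below the median and 6 in neither list.

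**Figure D5:**
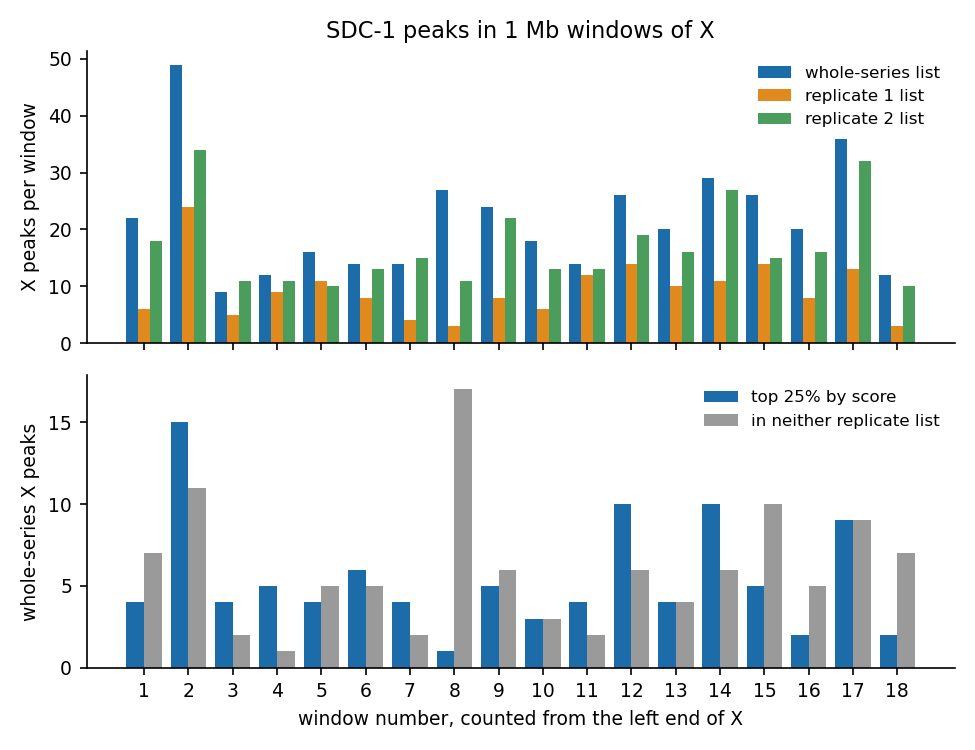
Above, X peaks per 1 Mb window in each list, and below, whole-series X peaks of the top 25% by score and those in neither replicate list. Window 2 is the fullest in each list (49, 24 and 34), and window 8 has the most peaks in neither list (17) and only 1 of the strongest.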

How the data were processed

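The files are GFF3 peak lists on WormBase WS220, per the file headers. Per their source column, the authors called peaks with MACS for each ChIP sample and MACS v2 for the whole-series list. The submitters' processing notes name BWA and ce10 without a role. The score of each peak is the value the authors deposited, with no stated definition, and levels were compared only within a list. Input libraries were not analysed here. Peak starts and ends were used as deposited.

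From these, widths, gaps, clusters, windows of 1 Mb, score steps of 25% of X peaks and overlaps (at least 1 bp) were computed with Python 3.11.15, numpy 2.4.6, scipy 1.17.1 and pandas 2.3.3, and plotted with matplotlib 3.10.9. Where several replicate peaks overlapped, the one with the highest score was taken. The measures were checked on simulated peaks with planted overlaps and gaps. The members and measures were chosen with earlier results of these data known. Named peaks are those with the largest score, the 3 widest, those beside the top 25% border, the 3 largest clusters and longest gaps, and the strongest or weakest exceptions in replicate overlap; replicate regions named beside them were chosen after their values were seen. The planned account of sequence and genes was not run, as no WS220 genome or annotation was used.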

Additional observations from a re-analysis of the deposited data

How the results depend on the processing

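Of 61 alternative values over 16 results, 7 of them added after the data were seen, 37 moved beyond their margin (the 95% interval, the replicate SD or, for counts, 1.5 times) and 24 did not. Requiring an overlap of at least 50% of both peaks lowered the share of X peaks in both replicate lists to 30.4%, and with 1 replicate list left out it was 40.7 to 70.6%. In the top 25% the share was 96.9 to 100% with 1 list left out, 100% after merging peaks less than 1000 bp apart or for the top 10%, and 66.0% for the top 50%. For peaks in both lists, rho of score and width was 0.56, the width ratio 3.36, the median gap 63362 bp, the clustered share 34.9%, the gap of the strongest 318827 bp, the distance to them 211068.5 bp and the fullest window 21 peaks. In the replicate lists these were 0.76 to 0.78, 3.44 to 3.57, 29965 to 60262 bp, 32.5 to 35.9%, 130613 to 307292.5 bp, 82287 to 132710 bp and 24 to 34 peaks. Leaving out the tied scores gave 0.67 for score and width and 0.79 for the replicate scores, which was 0.94 at an overlap of 50% of both. Cluster distances of 1000, 2000 and 10000 bp gave clustered shares of 31.7%, 37.6% and 59.3%. With the top 10% as the strongest peaks, their gap was 336139.5 bp and the distance to them 133693 bp. Merging peaks less than 5000 bp apart, or windows of 500000 bp, each left 28 peaks in the fullest window. Overlap of at least 50% of the replicate peak raised the X peaks without a whole-series peak to 17.2% in replicate 1 and 31.7% in replicate 2. Leaving out wide replicate regions raised rho of whole-series and replicate scores to 0.83 and 0.74. Lists with fewer peaks have longer gaps by construction. The clustered share, the distance to the strongest peaks and the fullest window also depend on the number of peaks. With 1 replicate list left out, the share of peaks found cannot fall. The cause of the other shifts was not tested. No paired analysis was possible because 1 group alone has peaks and no test was run. Unknown depth, tied top scores and 2 ChIP samples limit precision.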
